A study of Mus musculus with 8 samples.

Results

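Fusion of mononuclear precursors makes the multinucleated osteoclast, and 7 genes known to mediate or modify that fusion were followed here across every osteoclast library of the study: *Dcstamp*, *Ocstamp*, *Cd9*, *Cd81*, *Cd47*, *Sirpa* and *Adam8*. They were chosen by their known role in fusion, by a rule that uses no measured value, although earlier results of these data were known, and each was found by its Ensembl identifier among the 46517 genes of the deposited table. The study sequenced mRNA of osteoclasts from 8 mice, 4 *Elmo1-/-* and 4 *Elmo1+/-*, with 75 bp paired-end reads and 1 library per mouse. ELMO1 is a cytoplasmic adapter that works with DOCK proteins to activate the GTPase RAC. The comparison asks which genes of mature osteoclasts depend on it. Femoral bone marrow of mice aged 6 to 8 weeks was the source of the cells in both groups. Both were first cultured with 10% L929 conditioned medium, a source of M-CSF. Attached cells were then replated and cultured with 50 ng/ml of GST-RANKL, the osteoclast differentiation cytokine, for 7 days. The *Elmo1-/-* mice carry a global deletion, which is not restricted to osteoclasts. The *Elmo1+/-* controls keep 1 intact copy, although the titles of their libraries call them WT, so no library came from mice with 2 intact copies. The study ran 2 experiments with 2 mice of each genotype, and the labels do not say which mice shared an experiment. The libraries carry the numbers 1 to 4 in each genotype, and these numbers are used as names below.

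Osteoclasts arise from the monocyte and macrophage lineage when RANKL activates RANK. The signal induces the transcription factor NFATc1, which in turn switches on *Dcstamp*, *Ocstamp* and genes of bone resorption. Precursors must come into contact, recognize each other and merge their membranes, and the genes of the group act at different points of that sequence. DC-STAMP and OC-STAMP, encoded by *Dcstamp* and *Ocstamp*, are related multi-pass membrane proteins of the precursors, and osteoclasts of mice lacking either protein stay mononuclear. CD9 and CD81 are tetraspanins, small membrane proteins that gather integrins and other partners into patches of the cell surface. CD47 is a surface ligand and SIRPα, encoded by *Sirpa*, is its receptor on myeloid cells. ADAM8 is a membrane protein with a metalloprotease and a disintegrin domain that promotes osteoclast formation.

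The libraries held between 20905502 and 40846651 reads on genes, and the lowest value of any fusion gene rested on 1116 reads (*Ocstamp* in *Elmo1-/-* 1). The deposited values are normalized counts, that is, reads per gene divided by 1 size factor per library. All 7 genes passed the filter for the test, which asked for 4 or more libraries at or above a normalized count of 10, as did 14139 genes in all. *Elmo1* itself had 292 ± 17.6 (SD, n = 4) normalized counts in *Elmo1-/-* and 1593 ± 150.3 (SD, n = 4) in *Elmo1+/-* osteoclasts, with no overlap, so the libraries matched their labels. Each of 7 osteoclast markers was detected in every library. Their summed level lay between 440558 and 1138921 normalized counts in *Elmo1-/-* and between 573809 and 1060970.4 in *Elmo1+/-*. One of these markers is *Ocstamp*. The 7 macrophage markers summed to between 185643 and 244712.0 normalized counts in *Elmo1-/-* and to between 168827 and 231053 in *Elmo1+/-*. Neutrophil markers summed to between 10341 and 22550.2, stromal and osteoblast markers to between 528 and 1153, dendritic markers to between 439 and 659, and lymphocyte markers to between 46.6 and 238. *Cd209a*, a dendritic marker, was at 0 in every library. In such bulk samples fewer cells of a type and less RNA per cell cannot be told apart. The libraries also differed along an axis that is not the genotype. The first principal component held 62.3% of the variance and placed numbers 1 and 2 of both genotypes on one side and numbers 3 and 4 on the other, with *Elmo1-/-* 1 farthest out at -52.3 and *Elmo1-/-* 2 nearest the middle at -6.03. The genotype difference of each fusion gene is therefore also given within these numbers.

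No difference between the genotypes was detected for any of the 7 fusion genes. The test was limma on log2(normalized count + 1) with Benjamini-Hochberg adjustment over all 14139 genes, and it called 0 of 7 at an adjusted p under 0.05. The background was 1 gene, *Elmo1*, or 0.00707% of the genes tested. At an unadjusted p under 0.05 the test still held 0 of 7, against 133 genes or 0.941% of all tested. Within numbers 1 and 2 (n = 2 per genotype) the unadjusted limma p was 0.0251 for *Dcstamp*, with 369 of 14186 genes under 0.05. Within numbers 3 and 4 it was 0.00838 for *Ocstamp* and 0.0084 for *Cd9*, with 424 of 14232 genes under 0.05. The other members were above 0.05 in these fits, and no fusion gene passed the adjustment in either. The edgeR quasi-likelihood test on the recovered reads called 0 of 7 as well (background 1 of 14206 genes or 0.00704%), and so did limma with the replicate number as a block and the DESeq2 test. The genotypes overlapped for every member, while they did not overlap for 0.941% of the genes tested. The following paragraphs give the values gene by gene, in the order in which the proteins are described above.

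*Dcstamp* lies on chromosome 15 at 39745930 to 39760938 (GRCm38, plus strand, up to 4 exons in a transcript) and overlaps no other annotated gene. *Elmo1+/-* 1 to 4 had 7661, 5927, 15830.0 and 15653 normalized counts. *Elmo1-/-* 1 to 4 had 3626, 5196, 16398.5 and 15816. The lowest and the highest library were both *Elmo1-/-*, and the 4 libraries numbered 3 and 4 lay close together whatever their genotype. The means were 10259 ± 6787 in *Elmo1-/-* and 11268 ± 5215 in *Elmo1+/-* (SD, n = 4 each). The log2 fold change of *Elmo1-/-* relative to *Elmo1+/-* was -0.30 (SE 0.55, 95% interval -1.55 to 0.95, limma adjusted p = 0.99993), and an exact two-sided permutation test over the 70 arrangements gave p = 0.629. This interval spans 0.342-fold to 1.93-fold. With the replicate number as a block the 95% interval of *Dcstamp* was -0.83 to 0.22. The difference was -0.63 within numbers 1 and 2 and 0.03 within numbers 3 and 4 (n = 2 per genotype in each), and without *Elmo1-/-* 1 it was 0.10. Whether the 2 within-number values differ was not tested.

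*Ocstamp* lies on chromosome 2 at 165393760 to 165400405 (minus strand, 3 exons) and has a single annotated transcript. *Elmo1+/-* 1 to 4 had 1779.6, 1879.5, 3718 and 2998 normalized counts. *Elmo1-/-* 1 to 4 had 1056, 2131, 4270.3 and 4170.4. As for *Dcstamp*, *Elmo1-/-* 1 was the lowest and *Elmo1-/-* 3 the highest library, with every *Elmo1+/-* library in between. The means were 2907 ± 1579 in *Elmo1-/-* and 2594 ± 931 in *Elmo1+/-* (SD, n = 4 each). The log2 fold change was 0.03 (SE 0.45, 95% interval -0.996 to 1.05, limma adjusted p = 0.99993; exact permutation p = 1.0). The sign turned with the libraries used, from -0.29 within numbers 1 and 2 to 0.34 within numbers 3 and 4, and it was 0.44 without *Elmo1-/-* 1.

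**Figure D1:**
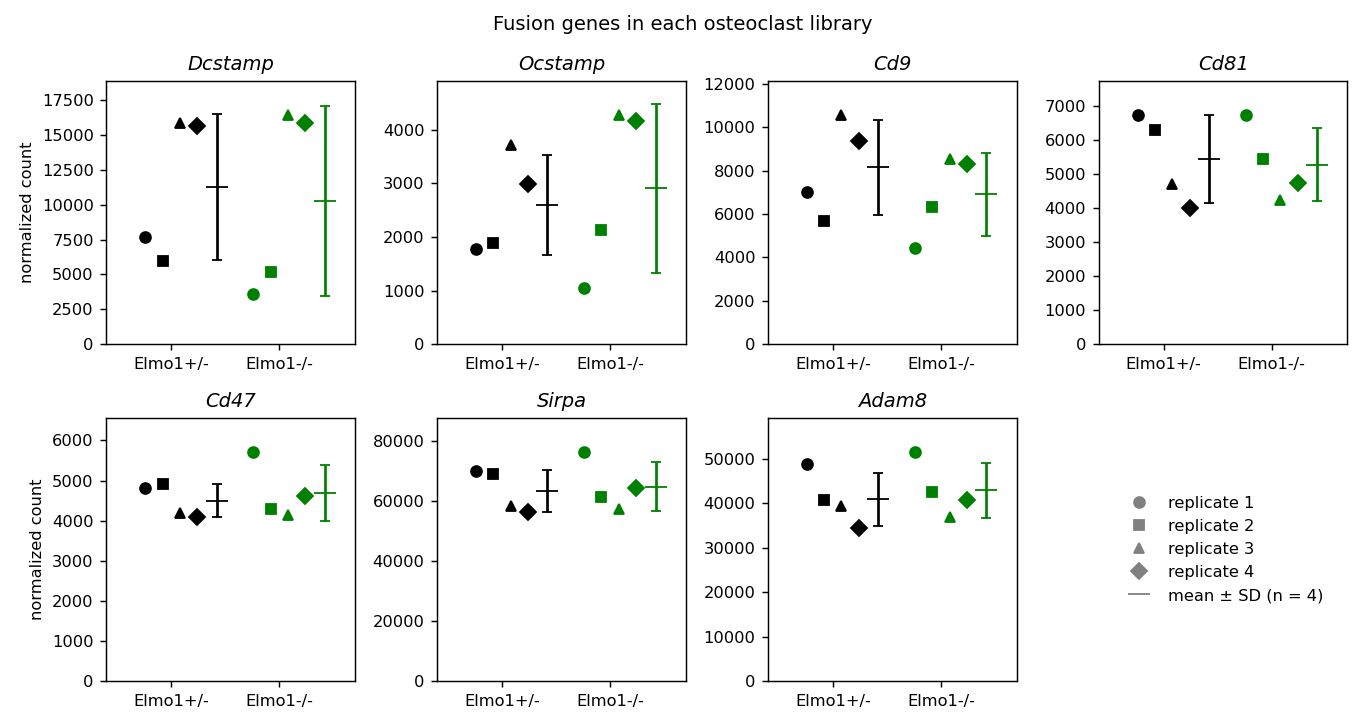
Normalized counts (vertical axes, from 0) of the 7 fusion genes in each library, by genotype (*Elmo1+/-* black, *Elmo1-/-* green) and by replicate number (symbol), with the mean and SD of 4 beside the points. The genotypes overlap in every panel, and *Dcstamp*, *Ocstamp* and *Cd9* are higher in replicates 3 and 4 than in 1 and 2 of either genotype.

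The tetraspanins *Cd9* and *Cd81* did not follow each other. *Cd9* lies on chromosome 6 at 125460266 to 125494791 (minus strand, up to 9 exons in a transcript). Its normalized counts were 6997, 5678, 10548 and 9358.5 in *Elmo1+/-* 1 to 4. In *Elmo1-/-* 1 to 4 they were 4442.5, 6335, 8527 and 8325. The lowest library was again *Elmo1-/-* 1, while the highest was *Elmo1+/-* 3. The means were 6907 ± 1918 in *Elmo1-/-* and 8145 ± 2209.8 in *Elmo1+/-* (SD, n = 4 each). The log2 fold change was -0.24 (SE 0.25, 95% interval -0.81 to 0.33, limma adjusted p = 0.99993; exact permutation p = 0.429). The difference was -0.25 within numbers 1 and 2 and -0.24 within numbers 3 and 4. It was lower in *Elmo1-/-* in 3 of 4 same-numbered pairs. With the replicate number as a block, its 95% interval was -0.52 to 0.04 with an unadjusted limma p of 0.0782 and an adjusted p of 0.9998. Without *Elmo1-/-* 1 the log2 fold change was -0.05.

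*Cd81* lies on chromosome 7 at 143052739 to 143067934 (plus strand, up to 8 exons). *Elmo1+/-* 1 to 4 had 6731, 6303, 4722 and 4014 normalized counts. *Elmo1-/-* 1 to 4 had 6727, 5447.5, 4235 and 4729.8. Here the number 1 libraries of both genotypes were the highest, and the number 3 and 4 libraries were the lowest. The means were 5285 ± 1083 in *Elmo1-/-* and 5443 ± 1286 in *Elmo1+/-* (SD, n = 4 each). The log2 fold change was -0.03 (SE 0.19, 95% interval -0.47 to 0.41, limma adjusted p = 0.99993; exact permutation p = 0.943). It was -0.11 within numbers 1 and 2 and 0.04 within numbers 3 and 4.

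The upstream sequences of these tetraspanin genes are shown because their levels ran in opposite directions across the same libraries. RefSeq promoters were given for 4 of the 7 genes (*Cd9*, *Cd81*, *Cd47* and *Adam8*), and *Dcstamp*, *Ocstamp* and *Sirpa* had no entry. The 2 sequences are the 200 bases farthest from the start within the 250 upstream bases, 5′ to 3′ on the strand of each gene, in build GRCm38.p6, at chr6:125494811-125495010 (minus strand) and chr7:143052500-143052699 (plus strand). Capitals mark GGAAA, the core bound by NFAT proteins.
Cd9: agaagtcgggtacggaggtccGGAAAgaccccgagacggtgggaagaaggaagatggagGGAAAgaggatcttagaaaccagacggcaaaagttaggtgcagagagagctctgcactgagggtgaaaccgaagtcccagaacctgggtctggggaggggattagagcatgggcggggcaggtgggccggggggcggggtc
Cd81: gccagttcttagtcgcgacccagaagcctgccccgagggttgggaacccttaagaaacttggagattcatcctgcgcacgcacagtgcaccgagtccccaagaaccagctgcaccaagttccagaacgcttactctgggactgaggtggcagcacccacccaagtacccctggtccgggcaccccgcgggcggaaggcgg
On both strands of the full 250 bases, GGAAA occurred 2 times upstream of *Cd9* and was not found upstream of *Cd81*, *Cd47* or *Adam8*. It occurred in 55.6% of 32851 RefSeq promoters of that length. The AP-1 motif TGANTCA, where N is any base, is present in 6.75% of them, the PU.1 core GAGGAA in 23.3% and the E-box CACGTG in 6.02%, and none of these was found upstream of the 4 genes. GAGGAA and GGAAA can overlap. A match of so short a motif describes the letters only, and a link between these sequences and the levels was not tested.

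The ligand and its receptor, *Cd47* and *Sirpa*, were the steadiest members. *Cd47* lies on chromosome 16 at 49800533 to 49915010 (plus strand, up to 13 exons). *Elmo1+/-* 1 to 4 had 4807, 4903, 4197 and 4083 normalized counts. *Elmo1-/-* 1 to 4 had 5711, 4302, 4143 and 4618.5. *Elmo1-/-* 1 was the highest library and the other 7 lay between 4083 and 4903. The means were 4694 ± 706 in *Elmo1-/-* and 4497 ± 417 in *Elmo1+/-* (SD, n = 4 each), and the log2 fold change was 0.05 (SE 0.11, 95% interval -0.20 to 0.31, limma adjusted p = 0.99993; exact permutation p = 0.743). Within numbers 1 and 2 and within numbers 3 and 4 it was 0.03 and 0.08.

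*Sirpa* lies on chromosome 2 at 129592835 to 129632228 (plus strand, up to 9 exons), 35.8 Mb from *Ocstamp*. *Elmo1+/-* 1 to 4 had 69924, 68955, 58394 and 56458 normalized counts. *Elmo1-/-* 1 to 4 had 76321, 61415, 57365 and 64208. *Elmo1-/-* 1 was the highest and *Elmo1+/-* 4 the lowest, as for *Cd47*. The means were 64827 ± 8161 in *Elmo1-/-* and 63433 ± 6992 in *Elmo1+/-* (SD, n = 4 each), and the log2 fold change was 0.03 (SE 0.12, 95% interval -0.24 to 0.30, limma adjusted p = 0.99993; exact permutation p = 0.886). Within numbers 1 and 2 and within numbers 3 and 4 it was -0.02 and 0.08. The interval of *Sirpa* spans 0.847-fold to 1.23-fold. The paralogs *Sirpb1a*, *Sirpb1b* and *Sirpb1c* could share reads with *Sirpa*, but they had at most 286, 349 and 1635 normalized counts in any library.

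*Adam8* lies on chromosome 7 at 139978932 to 139992562 (minus strand, up to 24 exons), 3.06 Mb from *Cd81*. *Elmo1+/-* 1 to 4 had 48976, 40822, 39417 and 34398 normalized counts. *Elmo1-/-* 1 to 4 had 51594, 42497, 36914.5 and 40857. The number 1 libraries were the highest of each genotype. The means were 42966 ± 6211 in *Elmo1-/-* and 40903 ± 6047 in *Elmo1+/-* (SD, n = 4 each). The log2 fold change was 0.07 (SE 0.14, 95% interval -0.24 to 0.38, limma adjusted p = 0.99993; exact permutation p = 0.629), and it was 0.07 within numbers 1 and 2 and 0.08 within numbers 3 and 4. Genes on the other strand overlap *Cd9*, *Cd81* and *Adam8*, and whether reads were counted by strand is not given in the sources used here. These genes, *Gm28809* at *Cd9*, *R74862* at *Cd81* and *Gm16201* at *Adam8*, had at most 62.4, 44.5 and 71.4 normalized counts in any library.

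**Figure D2:**
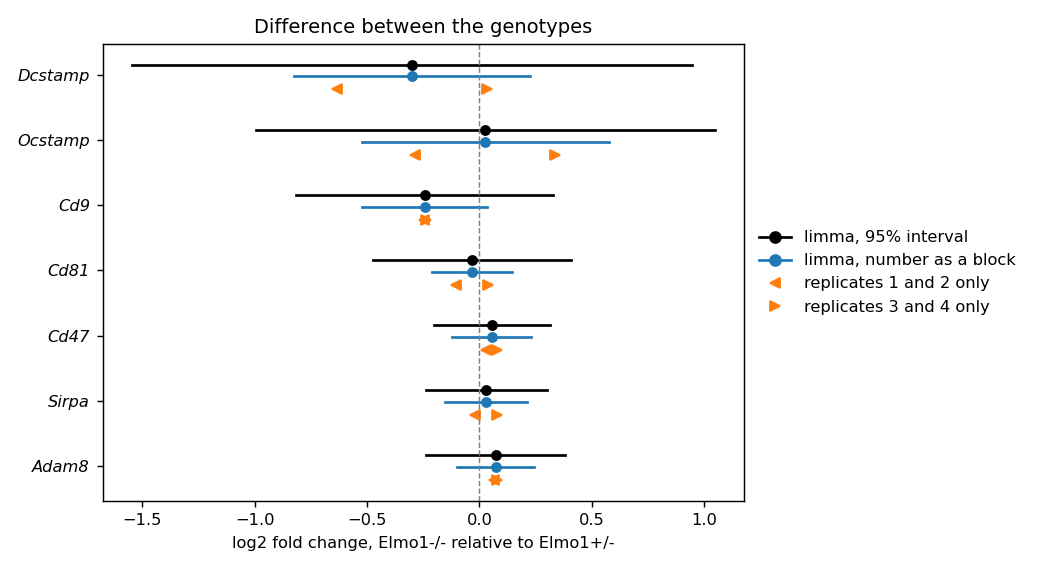
Log2 fold change of *Elmo1-/-* relative to *Elmo1+/-* (horizontal axis) for the 7 fusion genes, as limma estimates with 95% intervals without and with the replicate number as a block, and as values within replicates 1 and 2 and within 3 and 4. Every interval includes 0, and the intervals of *Dcstamp* and *Ocstamp* are the widest, from -1.55 to 0.95 and from -0.996 to 1.05.

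The study also used a ratio, the *Elmo1-/-* mean divided by the sum of both genotype means, which gives 0.5 for no difference, and compared 2 mice per genotype at a time. Over all 4 mice per genotype this ratio lay between 0.459 (*Cd9*) and 0.528 (*Ocstamp*) for the fusion genes and was 0.155 for *Elmo1*. Which mice the study set together is not in the labels. Taken within numbers 1 and 2 and within numbers 3 and 4, the ratio was 0.394 and 0.506 for *Dcstamp*, 0.466 and 0.557 for *Ocstamp* and 0.46 and 0.458 for *Cd9*. The mean of both values was then lowest for *Dcstamp* (0.45) and highest for *Adam8* (0.512). With the replicate number as a block every 95% interval of a fusion gene was narrower and still included 0. The p-values over all 8 libraries without a block measure a spread that includes the difference between numbers 1 and 2 and numbers 3 and 4. Those with the block or with pairs measure the spread of the same-numbered differences. The SE of *Dcstamp* was 0.55 without and 0.21 with the block. All of them refer to the mice of these 2 experiments only.

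Per length, the fusion genes spanned a wide range of expression. The levels here are normalized counts per kb of the union of annotated exons, as means over the 8 libraries. *Sirpa* was the highest at 13059 ± 1441 (SD, n = 8), followed by *Adam8* at 9042 ± 1247 and *Dcstamp* at 4040.3 ± 2113. *Cd9* had 3682 ± 992, *Cd81* 1863 ± 383, *Ocstamp* 752 ± 331 and *Cd47* 732 ± 87.2 normalized counts per kb. The ranges over libraries of *Dcstamp* and *Cd9*, of *Cd9* and *Cd81*, and of *Ocstamp* and *Cd47* overlapped, so these neighbours were not separated beyond the spread. The lowest *Sirpa* library (11496) lay above the highest *Adam8* library (11124), and the lowest *Cd81* library (1394) above the highest *Ocstamp* library (1168). *Sirpa* was above 99.3% and *Cd47* above 83.4% of the other tested protein-coding genes on this scale. Divided by the longest transcript in place of the exon union, *Cd9* passed *Dcstamp* and *Cd47* passed *Ocstamp*, while the other ranks held. The mean levels of *Cd9* and *Cd81* were then 6129 and 3338 normalized counts per kb, more than 1.5 times those per exon union.

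**Figure D3:**
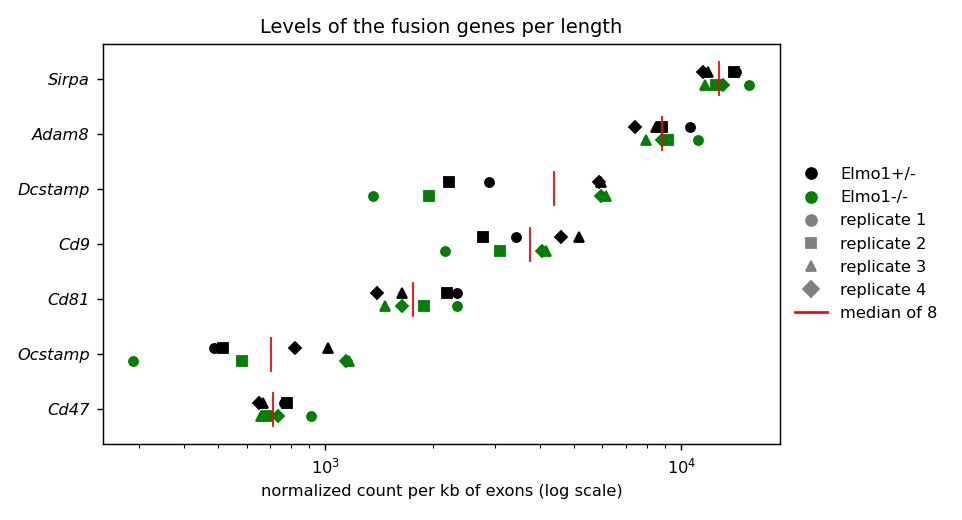
Normalized counts per kb of exons (horizontal axis, log scale) of the 7 fusion genes in each of the 8 libraries, ordered by their mean, with the median of 8 as a red line. *Sirpa* and *Adam8* are the highest and do not overlap with the others, *Dcstamp* spreads from 1361 to 6156, and *Ocstamp* and *Cd47* are the lowest.

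Between libraries the members fell into a variable set, spanning over 1 log2 unit, and a steadier set. The highest library had 4.52 times the *Dcstamp* count of the lowest, 4.04 times the *Ocstamp* count and 2.37 times the *Cd9* count. The corresponding values were 1.68 for *Cd81*, 1.5 for *Adam8*, 1.4 for *Cd47* and 1.35 for *Sirpa*. The median over all tested genes was 1.45-fold, and 3.54% of the tested genes spread more than *Dcstamp*, 4.56% more than *Ocstamp* and 61.6% more than *Sirpa*. *Cd81* and *Adam8* of the steadier set were above that median, with 33.75% and 45.4% of the tested genes spreading more. Counting error was small beside this spread, at most 1.62% of the reads for *Dcstamp* (1 Poisson SD, which covers counting only).

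The variable set followed the replicate numbers. As a description with no test, the mean log2 level in numbers 3 and 4 minus that in numbers 1 and 2 was 1.56 for *Dcstamp*, 1.18 for *Ocstamp* and 0.66 for *Cd9*. These 3 genes had all 4 libraries of numbers 3 and 4 above all 4 of numbers 1 and 2, a pattern of 18.1% of the tested genes. On the linear scale the means were 15924 against 5603 normalized counts for *Dcstamp*, 3789 against 1711.5 for *Ocstamp* and 9189.7 against 5863 for *Cd9*. *Cd81* ran the other way with a difference of -0.51, and its libraries of numbers 3 and 4 all lay below those of 1 and 2, as for 15.8% of the tested genes. For *Cd47*, *Sirpa* and *Adam8* the differences were -0.21, -0.22 and -0.28, and the number sets overlapped. The directions of all 7 were the same under TMM scaling and under equal totals. Over all tested genes 49.0% were higher in numbers 3 and 4 and the median difference was -0.01.

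**Figure D4:**
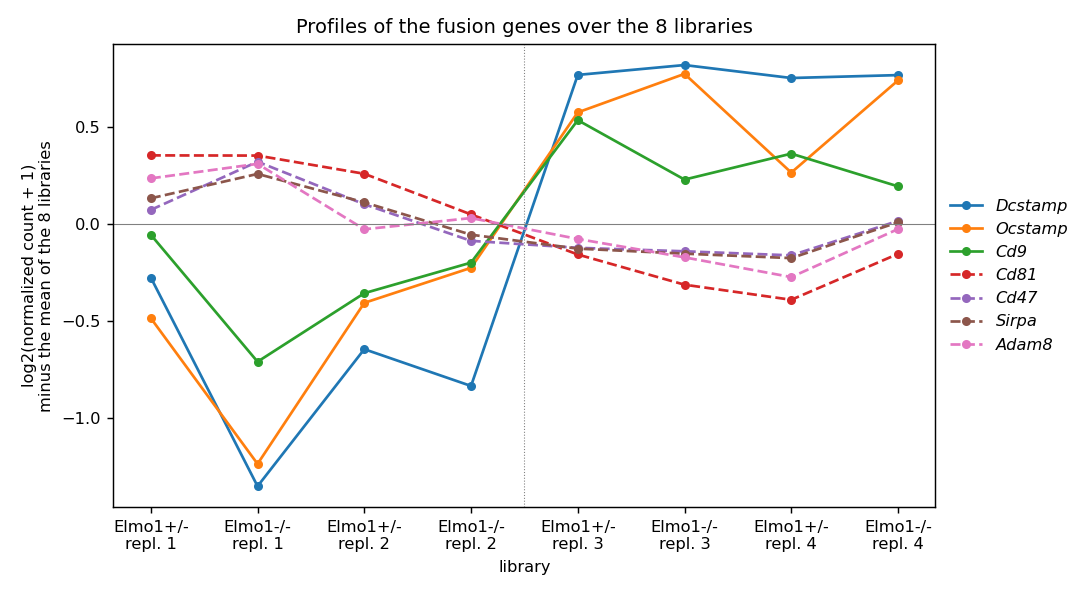
Log2(normalized count + 1) of each fusion gene minus its mean over the 8 libraries (vertical axis), with libraries ordered by replicate number and then genotype (horizontal axis). *Dcstamp*, *Ocstamp* and *Cd9* (solid lines) are higher in replicates 3 and 4 than in 1 and 2, by 1.56, 1.18 and 0.66 between the means. *Cd81*, *Cd47*, *Sirpa* and *Adam8* (dashed lines) lie lower on the right on average.

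The osteoclast and macrophage markers moved with these number sets too. All 7 osteoclast markers were higher in numbers 3 and 4, with a median log2 difference of 1.18 and no overlap of the number sets for any of the 7. This median is the value of *Ocstamp*, which is both a marker and a fusion gene. The other osteoclast markers ran from 0.60 (*Mmp9*) to 1.58 (*Ctsk*), and *Atp6v0d2* among them is also counted as a fusion mediator below. Of the 7 macrophage markers 1 was higher in numbers 3 and 4, and the median difference was -0.30. *Mrc1* and *C1qa* of the macrophage list had differences of -1.13 and -1.06. The part of the cell makeup in the levels of *Dcstamp*, *Ocstamp*, *Cd9* and *Cd81* was not tested. None of the 7 neutrophil markers was higher in numbers 3 and 4 (median -0.61), and of the tested markers 1 of 3 stromal and osteoblast, 0 of 1 lymphocyte and 2 of 3 dendritic genes were higher.

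Genes with profiles most like those of the 3 variable members were ranked by the root-mean-square difference between mean-centred log2 profiles over the 8 libraries, among 12054 other tested protein-coding genes. The nearest gene to *Dcstamp* was *Ctsk*, which encodes the bone-degrading protease cathepsin K, at 0.03 log2 units. The next were *Ckb*, brain-type creatine kinase, at 0.07 and *Cpe*, carboxypeptidase E, at 0.08. *Ctsk* counts were between 19.1 and 20.2 times the *Dcstamp* counts in every library, a spread of 1.06-fold, while *Ctsk* itself varied 4.72-fold and *Dcstamp* 4.52-fold. The counts of *Ctsk* ran from 69531 in *Elmo1-/-* 1 to 328165 in *Elmo1-/-* 3. Nearest to *Ocstamp* were *Col27a1*, a collagen chain, at 0.07, *Msi2*, an RNA-binding protein, at 0.08 and *Epha2*, an ephrin receptor, at 0.11. Nearest to *Cd9* were *B630019K06Rik* at 0.07, *Mras*, a Ras-related GTPase, at 0.07 and *Pfn2*, a profilin that binds actin, at 0.07. *Dcstamp* and *Ocstamp* themselves were 0.31 log2 units apart, and *Ocstamp* ranked 221 among the genes most like *Dcstamp*.

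Among the steadier members, *Sirpa* was the gene most like *Cd47* of all 12054 at 0.03 log2 units, and *Cd47* ranked 6 for *Sirpa*. This pair was looked at after its values were seen. The ratio of *Sirpa* to *Cd47* counts per kb was 18.6, 18.0, 17.8 and 17.7 in *Elmo1+/-* 1 to 4. It was 17.1, 18.2, 17.7 and 17.8 in *Elmo1-/-* 1 to 4. Receptor and ligand transcripts thus kept a ratio within 1.09-fold over all 8 libraries, including *Elmo1-/-* 1, where both had their highest level.

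The ratios within the other pairs of related members moved more. *Dcstamp* over *Ocstamp*, per kb, was 5.91, 4.33, 5.84 and 7.17 in *Elmo1+/-* 1 to 4. It was 4.71, 3.35, 5.27 and 5.21 in *Elmo1-/-* 1 to 4, a 2.14-fold spread over the 8 libraries with overlapping genotypes. Each *Elmo1-/-* value lay below the *Elmo1+/-* value of the same number. The labels do not say that equal numbers belong together, and *Elmo1-/-* 1 (4.71) lay above *Elmo1+/-* 2 (4.33). *Cd9* over *Cd81* was 1.46, 1.27, 3.15 and 3.28 in *Elmo1+/-* 1 to 4 and 0.93, 1.64, 2.84 and 2.48 in *Elmo1-/-* 1 to 4. It spread 3.53-fold, with numbers 1 and 2 at 0.93 to 1.64 and numbers 3 and 4 at 2.48 to 3.28. The 3 ratios were compared between the genotypes without and with the pairing by number. Without it, the log2 difference was -0.33 for *Dcstamp* over *Ocstamp* (exact two-sided permutation p = 0.171, Benjamini-Hochberg over 3 ratios 0.513), -0.21 for *Cd9* over *Cd81* (exact permutation p = 0.686, adjusted 0.686) and -0.03 for *Sirpa* over *Cd47* (exact permutation p = 0.4, adjusted 0.6). The smallest p this test allows is 0.0286. Within same-numbered pairs, *Dcstamp* over *Ocstamp* was lower in *Elmo1-/-* in 4 of 4 pairs, by log2 differences of -0.33, -0.37, -0.15 and -0.46 for numbers 1 to 4 (SD of the pairs 0.13). An exact two-sided paired permutation test gave p = 0.125, the smallest that 4 pairs allow, so it cannot pass 0.05 (adjusted over 3 ratios 0.375). The difference of this ratio was -0.35 within numbers 1 and 2 and -0.30 within numbers 3 and 4. *Cd9* over *Cd81* was lower in 3 of 4 pairs (exact paired permutation p = 0.375), with -0.14 and -0.28 within the number sets. *Sirpa* over *Cd47* was lower in 2 of 4 pairs (exact paired permutation p = 0.875). The ratios were chosen after their values were seen.

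**Figure D5:**
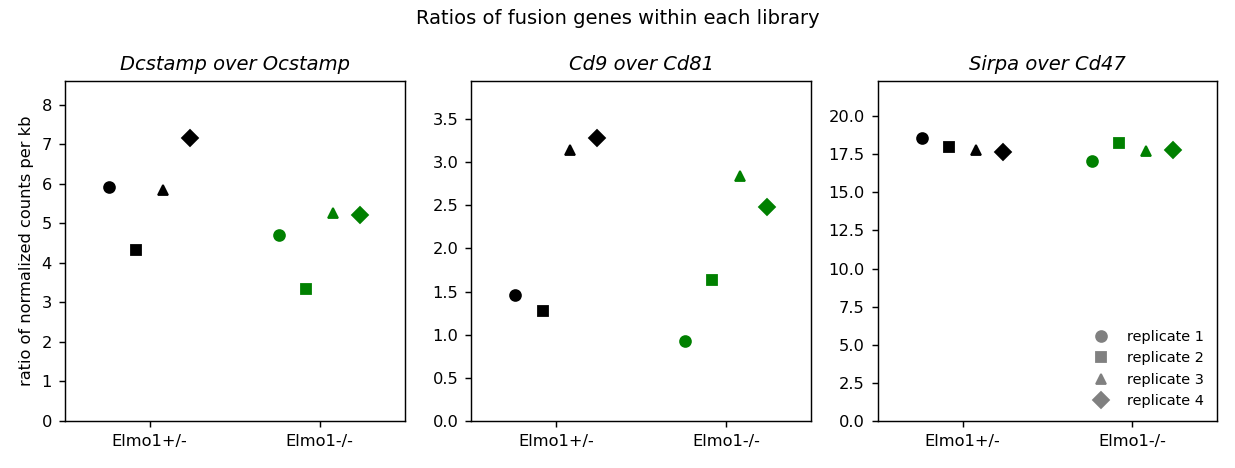
Ratios of normalized counts per kb within each library (vertical axes, from 0) for *Dcstamp* over *Ocstamp*, *Cd9* over *Cd81* and *Sirpa* over *Cd47*, by genotype (colour) and replicate number (symbol). *Sirpa* over *Cd47* stays between 17.1 and 18.6, while *Cd9* over *Cd81* is 0.93 to 1.64 in replicates 1 and 2 and 2.48 to 3.28 in 3 and 4.

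Other genes of the fusion machinery were read from 5 lists, which hold 55 genes. No tested gene of the lists was called in either direction between the genotypes by limma, edgeR or DESeq2, and 0 had an unadjusted limma p under 0.05. Of 18 other fusion mediators 16 were tested, with 0 higher and 0 lower in *Elmo1-/-* and a median log2 fold change of -0.01, against -0.003 over all genes tested. *Atp6v0d2*, a proton pump subunit that is also needed for fusion, had 10022, 9366, 24945 and 24164 normalized counts in *Elmo1+/-* 1 to 4. In *Elmo1-/-* 1 to 4 it had 5156, 10556, 25761 and 24879.5, and its log2 fold change was -0.17 (SE 0.56). The step between the number sets seen for *Dcstamp* was there for *Atp6v0d2* as well, with a log2 difference of 1.56 and no overlap. Of the 16 mediators 10 were higher in numbers 3 and 4, among them *Cd44*, *Itgav* and *Src*, while *Trem2* and *Tyrobp*, which form a receptor complex on precursors, were higher in *Elmo1-/-* 1 than in any other library. *Rac1*, the GTPase downstream of ELMO1 and DOCK proteins, had between 10962 and 11639 normalized counts in all 8 libraries. Of the syncytins, fusion proteins of retroviral origin, *Syna* had at most 19.8 normalized counts and was not tested, and *Synb* was at 0 in every library.

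All 10 inducers and repressors of *Dcstamp* and *Ocstamp* were tested, with 0 higher and 0 lower in *Elmo1-/-* (median 0.03). All 10 had a higher mean in numbers 3 and 4, with a median log2 difference of 0.39. The number sets did not overlap for 7 of the 10 and overlapped for *Fos*, *Mitf* and *Sbno2*. The smallest difference was that of *Sbno2*, 0.04. *Nfatc1* had 3717, 3932, 5020.3 and 5157.5 normalized counts in *Elmo1+/-* 1 to 4. It had 2680.1, 4300.6, 5800.3 and 5914 in *Elmo1-/-* 1 to 4, so it followed the number sets with a smaller amplitude than *Dcstamp*. The count of *Nfatc1* divided by that of *Dcstamp* ran from 0.317 in *Elmo1+/-* 3 to 0.828 in *Elmo1-/-* 2. *Prdm1*, a repressor that acts on inhibitors of osteoclast formation, ranged from 623 in *Elmo1-/-* 1 to 1606 in *Elmo1-/-* 4. *Tnfrsf11a*, which encodes RANK, ranged from 1864 to 3087 in the same 2 libraries.

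The remaining 3 lists stayed near the background between the genotypes. The 11 tetraspanins and partners were all tested, with 0 higher and 0 lower and a median of 0.00. *Cd37*, a leukocyte tetraspanin, shared its highest library, *Elmo1-/-* 1, with *Sirpa* and *Cd47* (6844 normalized counts, against 4141 to 5939 in the other 7). The partner *Igsf8*, which binds CD9 and CD81, had 2082 ± 175 in *Elmo1-/-* and 1930.1 ± 261 in *Elmo1+/-* (SD, n = 4 each). In the CD47-SIRPA list 9 of 9 genes were tested with 0 higher and 0 lower (median 0.01), and *Ptpn6*, the phosphatase SHP-1 recruited by SIRPα, had between 13085 and 16061 normalized counts, highest in *Elmo1-/-* 1. Of the ADAM list 6 of 7 genes were tested, 0 higher and 0 lower (median 0.01), and *Adam12* was too low, with at most 10.8 normalized counts. *Itga9*, which encodes a subunit of an ADAM8-binding integrin, had 554.0 ± 76.0 in *Elmo1-/-* and 656 ± 147 in *Elmo1+/-* (SD, n = 4 each; log2 fold change -0.22, SE 0.18). In numbers 3 and 4, 7 of 11, 3 of 9 and 2 of 6 tested genes of these lists were higher.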

How the data were processed

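Osteoclast RNA of 8 mice was measured by mRNA sequencing (Illumina TruSeq). The submitters' processing notes name FastQC, STAR, featureCounts and DESeq2, and no source used here gives the genome build, annotation or strand setting. The authors deposited normalized counts, a signal in which the reads of each gene were scaled by a DESeq2 size factor for the library. Also deposited were the authors' DESeq2 results (log2 fold change and error, test score, p-value), which were not used. Divided by the value of 1 read, 100% of the values were whole within 0.01 of a read. Symbols and positions came from GENCODE M21 (GRCm38), which matched 46005 identifiers and left 512 unmatched.

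Genotypes came from the genotype labels. They were compared with limma 3.58.1 (R 4.3.3, moderated with trend and robust options) on log2(normalized count + 1) with a minimum of 10 in 4 libraries, and fold changes are on that scale. edgeR 4.0.16 and DESeq2 1.42.0 were run on the recovered reads. Permutation tests were exact and two-sided. The scripts were tested on simulated data. The members and lists were chosen with earlier results of these data known, and the ratios and number sets after their values were seen. Genes named are the members, *Elmo1*, genes of the lists, and the 3 nearest profiles of members spanning over 1 log2 unit. Same-numbered libraries deviated together (correlations across genes 0.156 to 0.704, all over 0.1), so the numbers were taken to pair the libraries. Different numbers of the same set (1 with 2, 3 with 4) correlated from 0.0259 to 0.691, in part as strongly, so the sharing is by number set as much as by number.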

Additional observations from a re-analysis of the deposited data

How the results depend on the processing

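No setting called a fusion gene. The count was 0 of 7 under edgeR, DESeq2, TMM scaling, equal totals, no filter, a minimum of 50, pseudocounts of 0.5 and 8, the replicate block, the number set as a term and each left-out library, and the block changed no call. Adjusted p-values lay between 0.936 and 1.0. Over all genes the count of calls was 1, and 2 under DESeq2, where *Gpr137b-ps* joined *Elmo1*, and which made more false calls than limma or edgeR on the simulated data. It was between 1 and 2 with 1 library left out. Limma also called *Gpr137b-ps* beside *Elmo1* without *Elmo1+/-* 2 and within replicates 3 and 4, with 2 calls in each. The signs of the genotype differences, whose intervals all include 0, were mostly not stable. Leaving out 1 library gave log2 fold changes of -0.62 to 0.10 for *Dcstamp*, -0.23 to 0.44 for *Ocstamp*, -0.40 to -0.05 for *Cd9*, -0.17 to 0.0797 for *Cd81*, -0.0433 to 0.11 for *Cd47*, -0.0514 to 0.0859 for *Sirpa* and -0.0199 to 0.16 for *Adam8*, so *Cd9* alone kept its sign. *Dcstamp*, *Cd47*, *Sirpa* and *Adam8* turned without *Elmo1-/-* 1, the library at the end of the first principal component. Within replicates 3 and 4 the sign turned for *Dcstamp* (0.0329) and *Cd81* (0.0398), and within replicates 1 and 2 for *Ocstamp* (-0.29) and *Sirpa* (-0.0204). The cause was not tested. With 1 library left out, the genotype difference of *Cd9* over *Cd81* ran from -0.45 to 0.11. That of *Dcstamp* over *Ocstamp* ran from -0.46 (without *Elmo1+/-* 2) to -0.18 (without *Elmo1-/-* 2). It was negative in 8 of 8 cases, which share most of their libraries. At -0.46 the exact permutation p was 0.0571, the smallest this test allows with 1 library left out, so it cannot pass 0.05. The difference of *Sirpa* over *Cd47* ran from -0.0399 to -0.0081 with 1 library left out and was 0.0002 within replicates 3 and 4. The replicate block gave these ratios the values of the unpaired comparison, -0.33, -0.21 and -0.03 for *Dcstamp* over *Ocstamp*, *Cd9* over *Cd81* and *Sirpa* over *Cd47*. With 4 mice per genotype, the 95% intervals were widest for *Dcstamp* and *Ocstamp*, and the block narrowed them to -0.83 to 0.22 and -0.52 to 0.57.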
